A study of Homo sapiens with 6 samples.

Results

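Ubiquitin-specific proteases (USPs) are cysteine proteases that remove ubiquitin from proteins, and the expression of their genes was followed in DLD1 cells with and without a mutation of the p85β nuclear localization sequence. Members were the protein-coding genes whose symbol is USP followed by a number, with or without a final X. USP18, which acts on the ubiquitin-like protein ISG15, and the USP17L copies were left out. The rule gave 49 genes of the 58884 in the count table, of which 19815 are protein-coding. DLD1 is a colorectal cancer cell line with a PIK3CA helical domain mutation. The parental cells were compared with p85βKR-AA cells, DLD1 cells in which K477A and R478A were knocked into PIK3R2, the gene for p85β. RNA-seq was made from 3 libraries of each. The study describes 2 independently derived knock-in clones, but the labels do not say which clone a library came from, nor whether the libraries of a condition came from separate cultures, so the p-values measure the spread between these libraries, which may be technical.

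Ubiquitin is joined to proteins by E1, E2 and E3 enzymes, and the chain it forms decides whether a protein is sent to the proteasome, moved between membranes or brought into a complex. A USP cuts such chains or single ubiquitins, and so can save a protein from degradation, end a signal or return free ubiquitin to the pool. USP7 is the member named in the study, as a deubiquitinase of the H3K27 methyltransferases EZH1 and EZH2. It is also known for acting on the E3 ligase MDM2, and it acts on proteins, a level that RNA-seq does not measure.

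Library totals were between 20301932 and 20873475 counts in parental cells and between 20301396 and 26712816 in p85βKR-AA cells. The TMM factors were 0.677 to 0.777 in the parental and 1.354 to 1.41 in the mutant libraries. With library totals in place of TMM, the median log2 fold change of all genes was 0.92 higher. Levels are given as CPM, counts scaled to the TMM-normalized library size, in which 3 counts were worth 0.0818 to 0.218 CPM (counting error only). PIK3R2 was at 34.8, 12.3 and 19.3 CPM in parental and at 13.7, 16.6 and 4.54 CPM in mutant libraries, and these overlap. Gene counts do not show the amino acid changes. Of 10 colon epithelial markers, all were above 1 CPM in each parental library and 9 in each mutant library. Their summed level was 57200 to 79300 CPM in parental and 8810 to 10300 CPM in mutant libraries. Most of this sum came from KRT8, KRT18 and KRT19, and 6 of the 10 markers were down-regulated, while CDH1 and CDH17 were up-regulated. The summed level of 10 mesenchymal markers was 7.65 to 10.4 CPM in parental and 6320 to 7230 CPM in mutant libraries. Most of the mutant sum came from FN1 and VIM, with means of 4990 and 1770 CPM. Of the 8 tested, 6 were up-regulated, while COL1A1 and PDGFRB rose by less than the fold of 3. COL3A1, DCN and ZEB1 were at 0 in all parental libraries and COL1A2 at 0 in all mutant libraries. THY1 was at 0.0617 CPM or less in every library. Of 6 blood cell markers only CD68 was above 1 CPM. The part that this difference between the conditions has in the values of the USP genes was not tested, and fewer cells of a type cannot be told apart from less RNA per cell.

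Most USP genes had more RNA in the p85βKR-AA cells, and the largest differences were those of USP9X, USP34 and USP24. Of the 43 members that passed the filter on low counts, 23 were up-regulated and 2 were down-regulated, where a call needs a change of 3-fold or more with an adjusted p below 0.01 (edgeR quasi-likelihood test with Benjamini-Hochberg adjustment over 16059 genes). This is 53.5% up-regulated and 4.65% down-regulated, against 28.6% and 17.6% of all tested genes, of which 46.2% were called in either direction. Without the fold threshold, 31 members rose and 4 fell, that is 72.1% and 9.30%, against 41.6% and 32.7% of all tested genes. The median log2 fold change was 1.88 in the members and 0.32 in all tested genes, and the members ranged from -2.62 to 4.45. The 3 mutant libraries were all above the 3 parental libraries in 31 members, all below in 6, and overlapped with them in 6, where 47.0% of all tested genes were all above, 36.5% all below and 83.4% without overlap either way. The members were longer than most genes, and the comparison with genes of their own length, given further on, is the closer one.

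**Figure D1:**
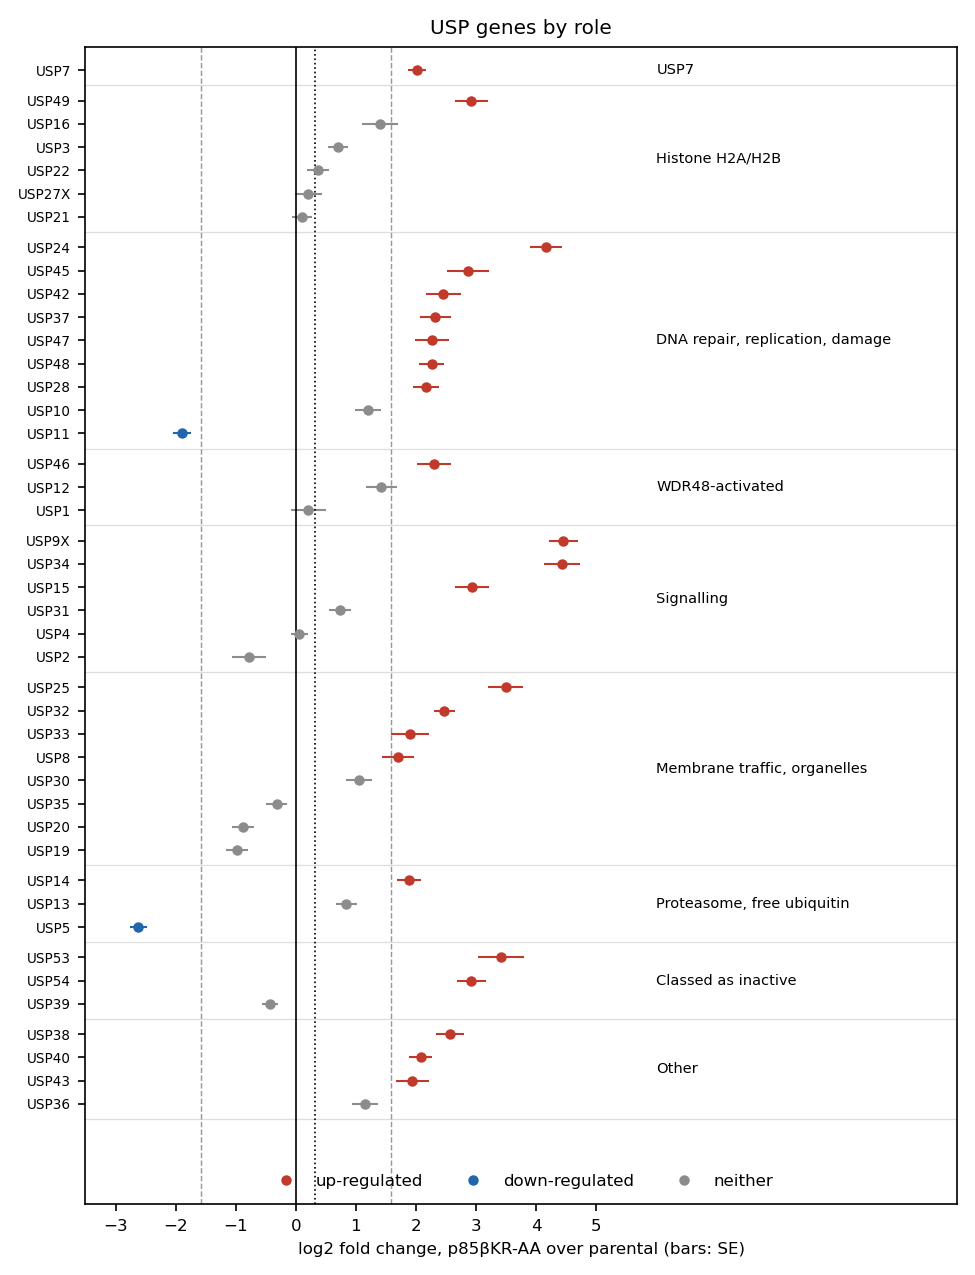
Log2 fold change of p85βKR-AA over parental cells (x axis) with its standard error for each of the 43 tested USP genes (y axis), grouped by role. Dashed lines mark a fold of 3, the dotted line the median of all tested genes, 0.32. The 23 red points lie to the right of the upper dashed line and the 2 blue points, USP5 and USP11, to the left of the lower one. The sign of 15 of the 43 genes changed under at least 1 of 4 other scalings, among them the up-regulated USP8, USP15 and USP46.

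The other 6 members had too few counts to be tested. USP44 and USP50 had 0 counts in every library, and USP26 and USP29 at most 2 counts in any library. USP51 was at 0 in the parental libraries and had 7, 6 and 6 counts in the mutant libraries. USP6, a gene that shares sequence with USP32, was at 0.0206 ± 0.0356 CPM in parental and 0.347 ± 0.213 CPM in mutant cells (SD, n = 3). No fold is given for genes this close to 0.

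USP7 (ENSG00000187555, chr16:8985954-9069185, minus strand, GRCh37) was at 22.8, 22.6 and 30.5 CPM in parental replicates 1, 2 and 3. It was at 99.6, 103 and 106 CPM in mutant replicates 1, 2 and 3. Every mutant library was far above every parental library, with little spread among the mutant libraries. The means were 25.3 ± 4.52 and 103 ± 3.37 CPM (SD, n = 3), a 4.07-fold difference. The log2 fold change was 2.02 with a standard error of 0.15, and the adjusted p by edgeR was 7.58e-08. The value stayed between 1.92 and 2.14 when any single library was left out. With an offset for gene length it was 0.84, and with offsets for length and GC content 0.95, both under the fold of 3. The length class of USP7, 4000 to 6000 bases, had a median of 1.18 over all its protein-coding genes, and USP7 was 0.84 above that.

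The study sets USP7 beside EZH1 and EZH2, so their transcripts were compared in the same libraries. It reports lower EZH1 and EZH2 protein in p85βKR-AA clones. It also reports unchanged EZH1 and EZH2 mRNA after p85β knockout, in DLD1 cells with only the mutant PIK3CA allele. Those knockout cells are not the cells compared here, and RNA-seq does not measure protein. EZH1 was at 3.59, 2.99 and 4.50 CPM in parental and 23.2, 22.9 and 23.8 CPM in mutant libraries, and its log2 fold change was 2.65 (SE 0.20, adjusted p 6.92e-08, edgeR). EZH2 was at 11.8, 14.9 and 19.7 CPM in parental and 28.4, 25.6 and 22.9 CPM in mutant libraries. Neither gene overlapped between the conditions. The EZH2 difference was under the fold of 3, at 0.73 on the log2 scale (SE 0.20, adjusted p 0.00426, edgeR), and turned to -0.22 with offsets for length and GC content. Within a library, the count ratio of USP7 to EZH2 was 1.52 to 1.94 in parental and 3.51 to 4.64 in mutant cells. The ratio of USP7 to EZH1 was 6.37 to 7.56 in parental and 4.29 to 4.52 in mutant cells, a shift in the other direction. Both have an exact permutation p of 0.1 (two-sided), the smallest that 3 against 3 libraries can give, before any adjustment over the 17 ratios computed.

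Among 14 genes whose products are known as USP7 substrates, 6 were up-regulated by edgeR and by DESeq2, where 28.6% and 26.2% of all tested genes were. CDC25A, at -1.58, was just under the fold of 3 by edgeR and was down-regulated by DESeq2, at -1.69. Without the fold threshold, 7 rose and 5 fell by edgeR, where 41.6% and 32.7% of all tested genes did. MDM2, an E3 ligase, was at 5.95, 6.39 and 7.13 CPM in parental and 48.2, 56.4 and 47.1 CPM in mutant libraries (log2 fold change 2.95). MDM4, its partner, and CCDC6 were also up-regulated, with log2 fold changes of 3.23 and 2.62. The substrates that had risen did not do so in all scalings: with offsets for length and GC content MDM2 was at 0.12 and MDM4 at 0.77, while EZH1 was at 2.20.

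The members that act in growth factor, WNT, TGF-β and NF-κB signalling held the largest differences of the family. Of these, 3 of 6 were up-regulated, where 28.6% of all tested genes were. They were the longest group, with a median of 11028 bases. As a group they did not stand out for their length: 3 of the 6 lay above their length class median, with a median difference of 0.14. USP9X (chrX:40944698-41095832, plus strand, GRCh37), which deubiquitinates SMAD4, MCL1 and cell junction proteins, was at 5.05, 2.62 and 4.50 CPM in parental libraries. In mutant replicates 1, 2 and 3 it was at 95.7, 101 and 71.5 CPM. The lowest mutant library was thus many times above the highest parental one, and the means, 4.06 ± 1.27 and 89.4 ± 15.7 CPM, differed 21.9-fold. The log2 fold change was 4.45 (SE 0.24, adjusted p 7.33e-09, edgeR). Reads of USP9X can be shared with its close copy on the Y chromosome, which was not examined here.

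USP34 (chr2:61414598-61698222, minus strand, GRCh37), which acts on axin in the WNT pathway, was at 2.61, 1.00 and 2.47 CPM in parental libraries. It was at 48.3, 52.7 and 31.7 CPM in mutant libraries. Parental replicate 2 and mutant replicate 3 were the low ones, and the conditions did not overlap. The log2 fold change was 4.43 (SE 0.30, adjusted p 3.74e-08, edgeR). The gene AHSA2P overlaps it on the opposite strand and also had more counts in the mutant cells, between 858.5 and 1317.98 against 55.27 to 92.98, and the sources used here do not say whether counting was stranded. USP15, which acts on TGF-β receptors and SMADs, was at 1.86, 1.89 and 1.73 CPM in parental and 16.5, 16.3 and 9.04 CPM in mutant libraries. All parental libraries were alike and mutant replicate 3 was the lowest of its condition. Its log2 fold change of 2.93 (SE 0.28, adjusted p 6.43e-07, edgeR) turned to -0.07 with offsets for length and GC content. USP31, USP4 and USP2 were not called, with log2 fold changes of 0.74, 0.06 and -0.78.

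In DNA repair, replication and the damage response, 7 of 9 tested members were up-regulated and 1 was down-regulated, where 28.6% and 17.6% of all tested genes were. With offsets for length and GC content, USP24 and USP42 were the members of this group still up-regulated. USP24, which acts on DNA damage proteins, was at 1.53, 0.801 and 1.3 CPM in parental libraries. It was at 23.6, 24.4 and 17.6 CPM in mutant libraries, so no library of one condition came near the other. The log2 fold change was 4.16 (SE 0.26, adjusted p 1.85e-08, edgeR). USP45, which acts on the nuclease subunit ERCC1, USP42, USP37, which acts on cyclin A, USP47, which acts on DNA polymerase β, USP48 and USP28, which stabilizes MYC, followed with log2 fold changes of 2.17 to 2.87. USP10, which works with the stress granule protein G3BP1, was at 1.20 (adjusted p 0.000262, edgeR) and under the fold of 3.

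USP11 (chrX:47092265-47107727, plus strand, GRCh37), a deubiquitinase of the BRCA2 and PALB2 repair proteins, moved the other way. It was at 340, 250 and 249 CPM in parental and at 73.8, 68.9 and 82.1 CPM in mutant libraries. Every mutant library was below every parental library. The means were 280 ± 52.0 and 74.9 ± 6.65 CPM, and the log2 fold change was -1.90 (SE 0.15, adjusted p 1.46e-07, edgeR). With library totals the value was -0.98 and with offsets for length and GC content -1.04, below the fold of 3 in size in both cases.

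Of 3 members that act on the proteasome or on free ubiquitin, 1 was up-regulated and 1 was down-regulated, where 28.6% and 17.6% of all tested genes were. USP5 (chr12:6961312-6975796, plus strand, GRCh37) takes apart ubiquitin chains that are not attached to a protein. It was at 692, 611 and 534 CPM in parental and at 93.1, 97.1 and 108 CPM in mutant libraries. This was the highest member in parental cells, and the mutant libraries lay far below without overlap. The means were 612 ± 78.9 and 99.4 ± 7.61 CPM, and the log2 fold change was -2.62 (SE 0.14, adjusted p 7.73e-09, edgeR), a 6.16-fold lower level. The value was between -2.75 and -1.65 under 4 other scalings, and USP5 was down-regulated in each of them. USP14, which trims chains at the proteasome, was up-regulated at 1.88, but was at 0.99 with the length offset and 0.02 with both offsets, under the fold of 3. USP13, the close copy of USP5, was at 0.84 (adjusted p 0.00075, edgeR), which turned to -0.83 with the length offset and -1.48 with both offsets.

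The free ubiquitin that USP5 recycles is made from several genes. Of these, UBB was at 2950 to 3460 CPM in parental and 569 to 602 CPM in mutant libraries. It was down-regulated, with a log2 fold change of -2.42, while RPS27A, at -0.86, was under the fold of 3. UBB was below the fold of 3 in size with library totals (-1.49), with the length offset (-1.18) and with both offsets (-1.25). Of the E1 enzymes, UBA1 was at -0.64 and UBA6 was up-regulated at 2.43, which turned to -0.20 with offsets for length and GC content.

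The 250 bases before the RefSeq start are given 5′ to 3′, in GRCh38.p14, for USP34, which rose, and for USP5 and USP11, which fell. They are the top of each direction with an entry in the RefSeq promoter table. USP34 is at chr2:61471088-61471337 on the minus strand, USP5 at chr12:6851900-6852149 and USP11 at chrX:47232759-47233008, both on the plus strand. Capitals mark the GC box (GGGCGG), the CCAAT box (CCAAT) and the ETS core (CCGGAA), searched on both strands.
USP34: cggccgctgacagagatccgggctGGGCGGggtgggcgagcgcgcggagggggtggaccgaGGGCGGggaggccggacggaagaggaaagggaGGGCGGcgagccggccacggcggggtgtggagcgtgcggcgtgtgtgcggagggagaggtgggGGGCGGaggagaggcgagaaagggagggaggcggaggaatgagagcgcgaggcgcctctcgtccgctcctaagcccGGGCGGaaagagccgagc
USP5: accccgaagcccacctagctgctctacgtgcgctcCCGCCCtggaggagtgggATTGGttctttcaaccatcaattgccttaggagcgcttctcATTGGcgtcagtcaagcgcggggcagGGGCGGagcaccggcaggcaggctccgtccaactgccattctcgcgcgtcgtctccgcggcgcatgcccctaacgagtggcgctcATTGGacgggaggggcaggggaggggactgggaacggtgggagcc
USP11: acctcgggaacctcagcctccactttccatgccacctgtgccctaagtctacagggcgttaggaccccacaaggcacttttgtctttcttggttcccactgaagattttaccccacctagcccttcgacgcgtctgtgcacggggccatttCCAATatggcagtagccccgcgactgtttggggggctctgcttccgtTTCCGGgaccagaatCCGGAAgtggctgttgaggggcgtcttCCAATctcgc
The USP34 window held 5 GC boxes and no CCAAT box. The USP5 window held 2 GC boxes and 3 CCAAT boxes, and the USP11 window 2 CCAAT boxes and 2 ETS cores. Of the 49 members, 39 had an entry, and their windows had a median GC content of 70.4%, against 65.2% in tested protein-coding genes. A GC box was found in 76.9% of the member windows, 67.4% of 10950 tested protein-coding windows and 42.3% of all 27305 windows. A CCAAT box was found in 25.6%, 34.6% and 33.0%, the ETS core in 23.1%, 24.5% and 14.8%, and a TATA box (TATAAA) in 5.13%, 5.53% and 11.1%. These are matches of letters, and no binding was measured. Motifs were not compared between the members that rose and those that fell, and 3 windows cannot show such a difference.

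Of 6 tested members that remove ubiquitin from histones H2A and H2B, 1 was up-regulated, where 28.6% of all tested genes were. Of the 6, 4 lay above the median of their length class. USP22, the deubiquitinase of the SAGA transcription complex, was the highest of them. It was at 198, 114 and 182 CPM in parental and 203, 196 and 240 CPM in mutant libraries. These overlap, and the log2 fold change of 0.37 (SE 0.19, adjusted p 0.0801, edgeR) did not pass the test and turned to -0.60 with the length offset. USP49, which acts on H2B, was up-regulated at 2.92, with means of 1.00 ± 0.391 and 7.72 ± 0.588 CPM. USP16, USP3, USP27X and USP21 were at 1.40, 0.70, 0.21 and 0.10.

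Among 3 members activated by the WD-repeat protein WDR48, USP46 was up-regulated at 2.30, though at -0.08 with offsets for length and GC content. USP1, which deubiquitinates FANCD2 and PCNA, was at 21.6, 45 and 18.4 CPM in parental and 35.3, 38.9 and 23.6 CPM in mutant libraries. Parental replicate 2 lay above every mutant library, so the conditions overlap. The log2 fold change of 0.21 (SE 0.29, adjusted p 0.529, edgeR) did not pass the test and was -0.06 without parental replicate 3, -0.02 with the length offset and -1.16 with both offsets. USP12 was at 1.42. WDR48 itself was up-regulated, from 4.18 to 7.65 CPM in parental to 18.7 to 23.2 CPM in mutant libraries, at 1.98 on the log2 scale. With the length offset WDR48 was at 1.53 and with both offsets at 0.45, under the fold of 3.

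Of 8 tested members in membrane traffic and organelles, 4 were up-regulated, where 28.6% of all tested genes were, and 4 lay above the median of their length class. USP25, which acts on proteins of the endoplasmic reticulum and on TRAF signalling proteins, was at 1.59, 0.947 and 1.23 CPM in parental libraries. It was at 16.4, 16.4 and 9.98 CPM in mutant libraries, all above the parental ones, with mutant replicate 3 the lowest. The log2 fold change was 3.49 (SE 0.29, adjusted p 1.81e-07, edgeR). USP19, a tail-anchored enzyme of the endoplasmic reticulum, was at 135, 80.1 and 106 CPM in parental and 51.7, 50.9 and 60.4 CPM in mutant libraries. It was lower in every mutant library, and its log2 fold change of -0.98 (SE 0.18, adjusted p 0.000214, edgeR) was under the fold of 3 and was -0.06 with library totals. USP32, USP33 and USP8, which acts on endosomal cargo such as the EGF receptor, were up-regulated at 2.47, 1.90 and 1.70. USP8 was at -0.81 with the length offset and -1.38 with both offsets. USP30, at the mitochondrial outer membrane, was at 1.05, USP35 at -0.32 and USP20 at -0.88, and the last turned to 0.04 with library totals.

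The members classed as lacking catalytic activity did not move together. USP53 was at 2.13, 1.09 and 0.740 CPM in parental and 16.7, 17 and 8.42 CPM in mutant libraries. The conditions did not overlap, and each had a library well apart from the other 2, parental replicate 1 on the high side and mutant replicate 3 on the low side. Its log2 fold change was 3.41 (SE 0.38, adjusted p 2.65e-06, edgeR). USP54 was up-regulated at 2.92. USP39, a part of the splicing machinery, was at 70.3, 60.7 and 76.1 CPM in parental and 48.9, 49.7 and 55.5 CPM in mutant libraries. It was lower in every mutant library by a small margin, and the log2 fold change of -0.43 (SE 0.14, adjusted p 0.0113, edgeR) did not pass the test and was 0.49 with library totals and 0.15 with the length offset. Of the members without a group, USP38, USP40 and USP43 were up-regulated at 2.56, 2.08 and 1.94. USP36, a nucleolar deubiquitinase, was at 26.4, 13.8 and 23.2 CPM in parental and 45.8, 43.6 and 51.3 CPM in mutant libraries, all mutant libraries above all parental ones, and its log2 fold change of 1.15 (SE 0.21, adjusted p 0.00023, edgeR) was under the fold of 3.

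**Figure D2:**
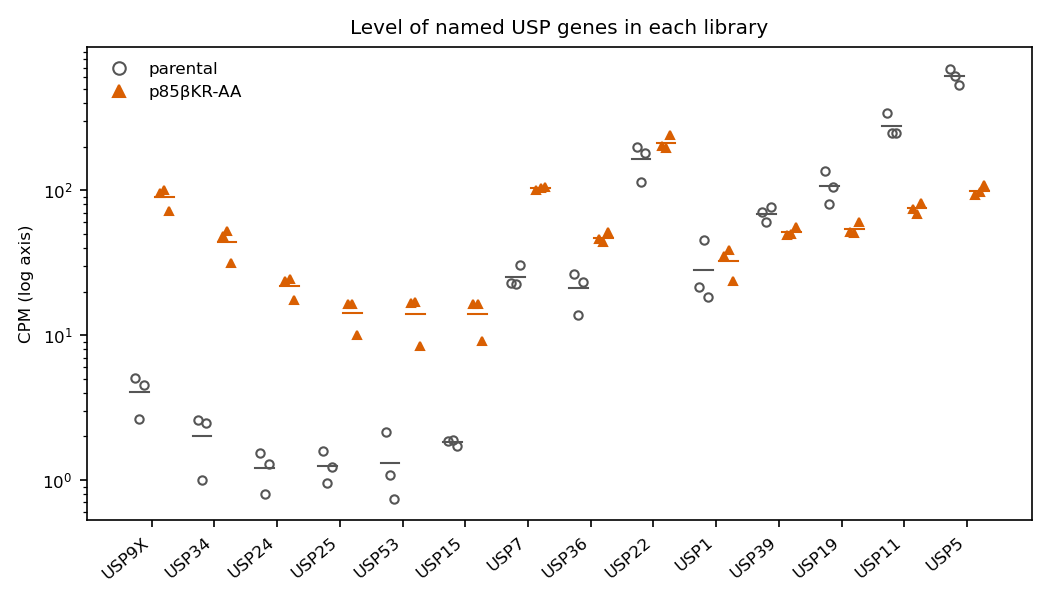
CPM (y axis, log scale) of 14 USP genes (x axis) in each of the 3 parental (circles) and 3 p85βKR-AA libraries (triangles), with a line at each mean. The conditions do not overlap in 12 of the genes, and overlap in USP22 and USP1. The genes shown for their large rise or fall were picked among those without overlap, so this count is no result. Of all tested genes, 83.4% did not overlap. USP5 lies at 534 to 692 CPM in parental and 93.1 to 108 CPM in mutant libraries.

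The libraries of a condition were not alike for the members that rose. Mutant replicate 3 was the lowest mutant library in 20 of the 23 up-regulated members, and mutant replicate 2 the highest in 16 of them. Among the 18 members that were not called, mutant replicate 3 was the lowest in 3 and the highest in 10. In the parental cells, replicate 3 was the highest library in 13 of the 23. Leaving out mutant replicate 3 kept all 23 calls and added USP12 and USP16, at 1.61 and 1.68. Leaving out mutant replicate 2 ended the call of USP8, at 1.49. Without parental replicate 1, USP8 and USP33 were no longer called, both at 1.54, and without parental replicate 2, USP12 and USP16 were called, at 1.71 and 1.60. USP8 lay just above the fold of 3 and USP12 just below it.

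The make-up of the family changed, while its summed level under TMM differed by less than the spread between libraries. The 49 members summed to 1580.2 ± 171.7 CPM in parental and 1489.7 ± 42.4 CPM in mutant cells (SD, n = 3). This depends on the scaling, since the unscaled counts of the family were 19938 to 26727 in parental and 39627 to 54904 in mutant libraries. USP5 took 38.8 ± 3.39% of the summed counts in parental and 6.68 ± 0.686% in mutant cells, and USP11 took 17.6 ± 1.38% and 5.04 ± 0.594%. The other 47 members summed to 688 ± 84.0 CPM in parental and 1315 ± 55.1 CPM in mutant cells. USP7 took 1.62 ± 0.370% and 6.93 ± 0.382%, and USP22 10.3 ± 2.23% and 14.4 ± 2.0%. These shares are taken within a library and do not depend on the scaling between libraries. They are not corrected for the relation of the fold change with gene length and GC content, given further on.

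Compared per kilobase of gene length, USP5 had the highest level in parental cells, at 193 ± 24.8 CPM per kb, before USP11 at 83.8 ± 15.6. USP39 and USP22 followed at 33.9 ± 3.83 and 31.7 ± 8.65, which do not differ beyond their spread, and then USP19 at 22.9 ± 5.87. In mutant cells USP22 was the highest, at 41.1 ± 4.51 CPM per kb, before USP5 at 31.2 ± 2.39. USP39, USP10 and USP11 came next at 25.2 ± 1.76, 23.9 ± 0.446 and 22.4 ± 1.99, close to their spread. USP7 was number 11 in parental cells, at 4.34 ± 0.775 CPM per kb, and number 6 in mutant cells, at 17.7 ± 0.578.

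Many USP genes arose as pairs of close copies, and the count ratio of a pair within a library does not depend on the scaling between libraries. The ratio of USP4 to USP15 was 17 to 18.6 in parental and 1.94 to 4.16 in mutant libraries. That of USP5 to USP13 was 69.3 to 105 and 7.34 to 8.22. In both pairs the copy with the shorter gene length lost ground, with 3126 and 14971 bases for USP4 and USP15 and 3181 and 8038 for USP5 and USP13. The shorter copy also lost ground in USP12 and USP46, USP16 and USP45, and USP35 and USP38. In USP31 and USP43, of 10699 and 4185 bases, the longer copy lost ground. Their ratio was 2.67 to 4.73 in parental and 1.44 to 1.6 in mutant libraries. Pairs of similar length also diverged. The ratio of USP20 to USP33, of 4371 and 4155 bases, was 2.56 to 11.3 in parental and 0.508 to 0.748 in mutant libraries, and these genes differ in GC content, at 60.3% and 39.9%. The ratio of USP4 to USP11, of 3126 and 3338 bases, was 0.0962 to 0.129 and 0.437 to 0.458.

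In 3 other pairs the ratios of the conditions overlapped. They were USP53 to USP54, at 0.141 to 0.653 and 0.301 to 0.621, USP25 to USP28, at 0.157 to 0.414 and 0.411 to 0.641, and USP22 to USP27X, at 35.5 to 64.8 and 49.0 to 70.1. Their exact permutation p-values were 0.7, 0.2 and 0.6 (two-sided, not adjusted over the 17 ratios). For USP25 to USP28 the overlap was slight and the medians were 0.169 and 0.597, and these p-values do not show that a pair changed equally. In the other pairs named here the conditions did not overlap, with the smallest possible exact p of 0.1. A ratio shows that a pair changed unequally, not which gene changed.

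The members were long genes, with a median length of 5155 bases in the deposited table against 2963 for all tested protein-coding genes, and they had a lower GC content, 44.1% against 48.8%. Over all tested protein-coding genes, the log2 fold change rose with length. The median was -0.99 in genes of up to 2000 bases, -0.18 at 2000 to 3000, 0.57 at 3000 to 4000, 1.18 at 4000 to 6000 and 2.15 in those over 6000 bases. Across the 43 members, Pearson's r of the log2 fold change was 0.59 with log2 length and -0.66 with GC content, and across 13756 protein-coding genes it was 0.42 and -0.50. These are descriptions across genes, which share the 6 libraries and are not independent.

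Within its length class a USP gene lay above the class median in 28 of 43 cases. Over 6000 bases, 11 of 13 members were up-regulated, where 61.2% of the 2050 protein-coding genes of the class were, and the median of the members was 2.56. At 4000 to 6000 bases it was 10 of 17, where 42.1% of the class were, with a median of 1.90. At 3000 to 4000 bases, 2 of 8 members, USP37 and USP48, were up-regulated and USP5 and USP11 were down-regulated, where 28.2% and 10.8% of the class were, and the median of 0.14 was below that of the class. At 2000 to 3000 bases none of 5 members reached both thresholds by edgeR or DESeq2, where 18.1% of the class were up-regulated by edgeR, although USP10 and USP16 had an adjusted p under 0.01. No member was shorter. USP25, USP9X and USP34 were 2.31, 2.30 and 2.28 above their class medians, and USP5 was 3.19 and USP11 2.47 below theirs.

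**Figure D3:**
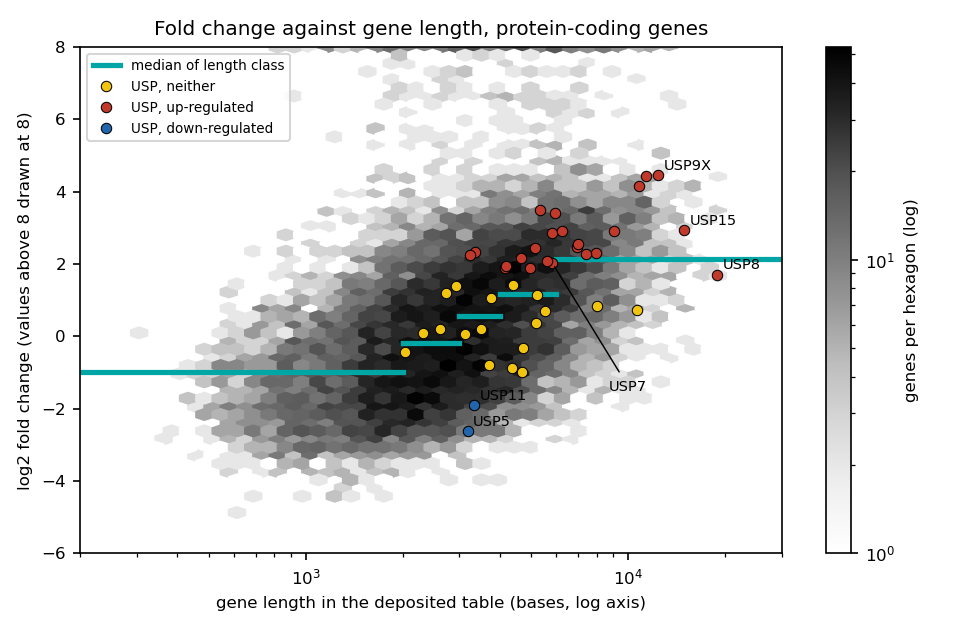
Log2 fold change of p85βKR-AA over parental cells (y axis) against gene length in bases (x axis, log scale), with all tested protein-coding genes as grey hexagons and the 43 tested USP genes as points. Horizontal lines are the medians of 5 length classes, which rise from -0.99 to 2.15. Of the 23 up-regulated USP genes, 21 are over 4000 bases, while USP5 and USP11, of 3181 and 3338 bases, lie well below their class.

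With an offset for gene length in the fit, 9 members were up-regulated (USP9X, USP24, USP25, USP34, USP37, USP45, USP48, USP53 and USP54) and 3 down-regulated (USP5, USP11 and USP19), where 24.2% and 12.9% of all genes were. With offsets for length and GC content, 6 were up-regulated (USP9X, USP24, USP34, USP42, USP43 and USP54) and USP5 alone was down-regulated, where 17.8% and 6.54% of all genes were. The median of the members above that of all genes was 1.56 with TMM, 1.56 with library totals, 0.41 with the length offset and 0.07 with both offsets. The offsets take out every relation between counts and length or GC content, and the source of that relation was not tested. USP5, USP9X, USP24, USP34 and USP54 kept their calls in all 14 refits, and the other 20 called members lost theirs in at least 1.

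**Figure D4:**
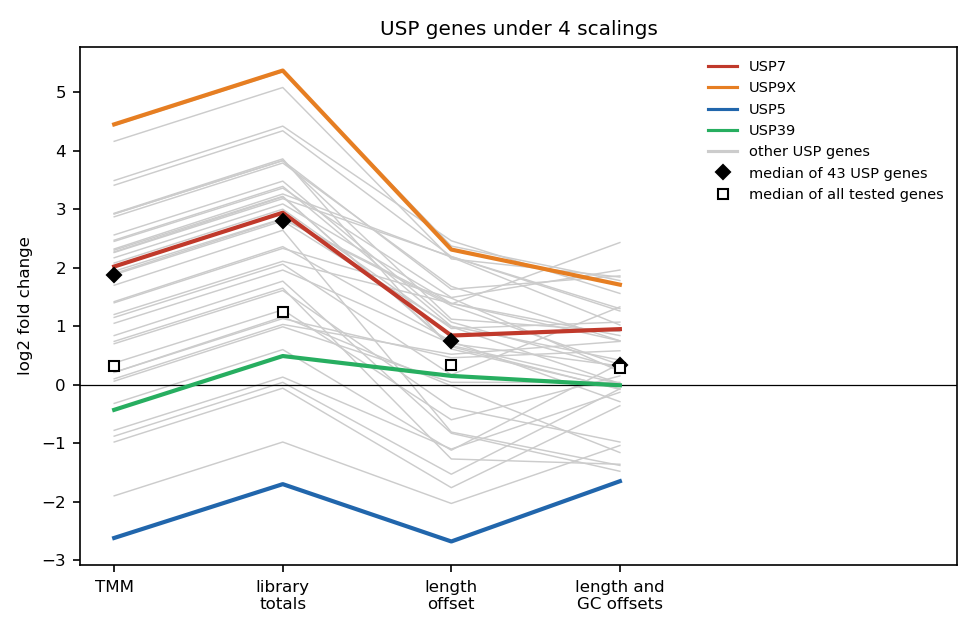
Log2 fold change (y axis) of the 43 tested USP genes under TMM, library totals, a length offset and offsets for length and GC content (x axis), 1 line per gene, with the medians of the members (diamonds) and of all tested genes (squares). The 2 medians are 1.56 apart with TMM and 0.07 apart with both offsets; USP9X stays at or above 1.71 and USP5 at or below -1.65, while USP39 goes from -0.43 to 0.49 and back to -0.01.

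Deubiquitinases of other families were called in both directions. Of 26 tested genes with UCH, OTU, Josephin, MINDY or ZUFSP domains, 10 were up-regulated and 3 down-regulated, where 28.6% and 17.6% of all tested genes were. UCHL1, a neuronal ubiquitin hydrolase, had 0, 2 and 0 counts in parental libraries and 250 to 284 CPM in mutant libraries. TNFAIP3, an inhibitor of NF-κB signalling, was at 4.88 to 6.35 CPM in parental and 117 to 123 CPM in mutant libraries, at 4.43 on the log2 scale. OTUD4 and OTUD3 were at 3.81 and 2.71. Of 11 genes of the JAMM metalloprotease family in a wide sense, 2 were up-regulated and 3 down-regulated, beside the same shares of all genes. This list also holds subunits of larger complexes that are not classed as metalloproteases, among them COPS6 and EIF3F. The 3 down-regulated genes were MPND at -3.09, the COP9 signalosome subunit COPS6 at -2.27 and the translation factor subunit EIF3F at -2.16. COPS6 and EIF3F were not called with library totals, at -1.33 and -1.23, and MPND and COPS6 not with offsets for length and GC content, at -0.83 and -0.94. Of CYLD, PAN2 and USPL1, which have a USP domain without a USP number, 1 was up-regulated, where 28.6% of all tested genes were. Of 11 partners and activators of USP proteins, 3 were up-regulated, or 27.3%, near the 28.6% of all tested genes. Without the fold threshold 8 rose and 2 fell, where 41.6% and 32.7% of all tested genes did. The risers included WDR48 and the endosomal adaptor STAM2, at 1.90, which turned to -0.14 with offsets for length and GC content.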

How the data were processed

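The authors deposited expected counts per Ensembl gene for 6 libraries, with another column for gene length. Per the labels, HISAT2 2.1.0, RSEM 1.3.1, DESeq2 1.24.0 and build hg18 were used, with TruSeq RNA libraries. The annotation and strandedness are not given in the sources used here. The source names of 2 mutant libraries read R479A and R480A where their other labels read K477A and R478A. Their genotype label was used.

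Counts were rounded and fitted without covariates in edgeR 4.0.16 (R 4.3.3), using TMM, the quasi-likelihood test and Benjamini-Hochberg adjustment, after filterByExpr (minimum count 10, minimum total 15). The design assumed whole counts. Standard errors came from the fold change and the F statistic. Symbols, positions and GC content came from GENCODE release 44 on GRCh37, joined by Ensembl identifier (56745 of 58884 genes). Alternatives were DESeq2 1.42.0, library totals, other filters and thresholds, omission of each library, a replicate block, and spline offsets (MASS 7.3.60.0.1, 5 degrees of freedom) for length and GC content. The code was tested on simulated data. Promoters came from the RefSeq table. Figures were drawn with matplotlib 3.10.9.

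Values in every library are given for USP7, for up to 6 up- and 6 down-regulated members of largest change whose conditions did not overlap and whose average log2 CPM was 3 or more, and for the highest member of each group. For other lists, up to 4 called genes of that level are named. Members, groups and lists were chosen with earlier results of these data known. Some genes of these lists are not reported here.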

Additional observations from a re-analysis of the deposited data

How the results depend on the processing

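Among the members the number up-regulated was 23 with TMM, 9 with the length offset, 6 with offsets for length and GC content, and 21 to 25 with single libraries left out. The number down-regulated was 2, and 1 with library totals, with both offsets and in the test against a fold of 3, and 4 without a fold threshold. Their median log2 fold change of 1.88 became 2.80 with library totals, 0.74 with the length offset, 0.34 with both offsets, and 1.54 to 1.97 with single libraries left out. Of all tested genes, 7052 were up-regulated with library totals, 2898 with at least 10 counts in every library, 2832 with both offsets and 2974 in the test against 3. Down-regulated were 973 with library totals, 1040 with both offsets, 1779 in the test against 3, 5246 without a fold threshold and 4289 at a fold of 2.

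Signs changed with the length offset for USP1 (-0.02), USP3 (-0.39), USP8 (-0.81), USP13 (-0.83), USP22 (-0.60), USP31 (-1.27) and USP39 (0.15). They changed with both offsets for USP1 (-1.16), USP3 (-0.98), USP8 (-1.38), USP12 (-0.29), USP13 (-1.48), USP15 (-0.07), USP31 (-1.36), USP35 (0.36) and USP46 (-0.08). With library totals they changed for USP2 (0.13), USP20 (0.04), USP35 (0.60) and USP39 (0.49), with DESeq2 for USP4 (-0.05) and USP21 (-0.02), and with single libraries left out for USP1 (-0.06 to 0.68, negative without parental replicate 3) and USP4 (-0.02 to 0.12, negative without p85βKR-AA replicate 3). The cause was not tested.

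With the replicate number as a block there were 23 up-regulated and 2 down-regulated members, with a median of 1.92, and 4618 and 2823 genes in all. The block changed no call of a member. Deviations of libraries with the same number correlated at -0.098, 0.084 and -0.04, and 2 of 6 libraries correlated best with their own number. No pairing by number was thus seen, which does not show that there was none. For single genes the level of 3 counts was 0.0818 to 0.218 CPM, a range that follows the TMM-normalized library sizes.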
